A study of Homo sapiens with 12 samples.

Results

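Untreated HaCaT and untreated TIGK were compared at baseline to show how a skin and a gingival keratinocyte line differ before any oxidant is added. The comparison used the 3 untreated libraries of each line, 6 of the 12 libraries of the series, and the 16960 of 58735 counted genes whose raw counts averaged 10 or more over those 6 libraries. HaCaT is a line of adult human skin keratinocytes that became immortal spontaneously and carries a rearranged karyotype. TIGK are gingival keratinocytes that were immortalized with telomerase. Both lines were kept in DermaLife K Keratinocyte Complete Medium, were confluent, and received no H2O2, and polyadenylated RNA was sequenced. The other 6 libraries of the series came from the same lines after 5 mM H2O2 for 3 h and were used here to see whether a baseline difference was also present after the oxidant. Each line is a single line from a single donor, so the effects of tissue, donor and line cannot be told apart, and no source used here says whether the 3 libraries of a line came from separate cultures.

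Library totals lay between 33658365 and 49034244 counts. Genes of the mitochondrial chromosome took 6.10% to 6.26% of the counts in HaCaT and 3.33% to 3.45% in TIGK. Levels here are shares of the RNA of a library, so fewer cells of a kind and less RNA per cell cannot be told apart. All 18 markers of keratinocytes passed the filter, from the basal keratin KRT5 to the lineage factor TP63. The filter is on the mean over both lines, so passing it does not show expression in each line. At an adjusted p under 0.01, 12 of the 18 were higher in HaCaT and 4 in TIGK. At least 2-fold higher were 3 in HaCaT and 0 in TIGK. Of 38 markers of melanocytes, fibroblasts, endothelium, leukocytes, neuroendocrine and glandular cells, 9 passed the filter and 6 were at 0 in all 6 libraries, among them COL1A2 of fibroblasts, TYR of melanocytes and CDH5 of endothelium. Together the 38 markers summed to 18.5 to 22.0 CPM (counts scaled to the library total) in HaCaT and 40.2 to 43.0 CPM in TIGK.

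Keratinocytes build their skeleton from pairs of keratins, anchor to the basement membrane through integrins and laminins, and seal the surface by cross-linking envelope proteins such as filaggrin. Skin of the trunk and limbs keeps the HOX code of the body region it came from, whereas the lining of the mouth, which forms from the head region of the embryo, is known to lack most HOX expression and to carry factors of the jaws and oral epithelium such as PITX and BARX genes. Interferon-stimulated genes form another programme of epithelial cells: they are switched on when interferon activates STAT and IRF proteins, which bind a short element before their start sites.

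At an adjusted p under 0.01, 4829 genes (28.5% of those tested) were higher in HaCaT and 5315 (31.3%) were higher in TIGK, so that a call was the rule rather than the exception (59.8% in either direction). The libraries of the 2 lines did not overlap in 72.7% of the genes. With at least a 2-fold difference required as well, 1909 genes (11.3%) remained higher in HaCaT and 2681 (15.8%) higher in TIGK. Very large differences lay mostly on the gingival side: past a log2 difference of 3, which is 8-fold, 379 genes were higher in HaCaT and 1134 in TIGK. All differences below are log2 values of HaCaT over TIGK with their standard error (SE), positive where HaCaT was higher, and levels by library are TMM-normalized counts in the order of replicates 1, 2 and 3. The median of all genes was -0.018. The balance of calls turned when all 12 libraries were fitted together: 5008 genes were then higher in HaCaT and 4996 in TIGK, and the median was 0.016.

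Genes on in a single line were those with at least 50 raw counts in every library of that line and at most 3 in every library of the other. HaCaT had 36 such genes (0.212% of those tested), 23 of them protein-coding, and TIGK had 198 (1.17%), 174 of them protein-coding. In 15 of the 36 and 118 of the 198 the other line had a count of 0 in all 3 libraries. The levels of the HaCaT genes reached 12.6 RPKM (counts scaled to gene length and library total, which allows genes to be compared), with a median of 1.77 RPKM, and those of the TIGK genes reached 54.3 RPKM with a median of 1.16 RPKM. The rule held again in the H2O2 libraries for 22 of the 36 genes and for 150 of the 198.

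In the reference genome, the bases before the start sites differed between the 2 sets of genes in their content of CpG. This is the dinucleotide at which mammalian DNA is methylated. The DNA of the lines themselves was not read. The 250 bases before the start of the canonical transcript were read from GRCh38 at the starts of GENCODE v44, and called CpG-rich where the observed over expected CpG ratio was at least 0.6 and the GC content at least 50%. Of all 13501 protein-coding genes tested that had such a window, 78.9% were CpG-rich. The share was 124 of 174 (71.3%) in genes on in TIGK only and 8 of 23 (34.8%) in genes on in HaCaT only, and the median number of CpG was 22 and 8. Among genes at least 2-fold higher it was 71.8% in TIGK and 65.3% in HaCaT, and among genes with no call 77.0%. Methylation was not measured, and these shares are a description. The windows of 4 genes are examples, with each CpG in capitals: FBLN2 at chr3:13548875-13549124 (+ strand, 33 CpG) and LAMC3 at chr9:131008924-131009173 (+ strand, 27 CpG), both on in TIGK only, and MXRA5 at chrX:3346653-3346902 (- strand, 25 CpG) and MRGPRX3 at chr11:18132321-18132570 (+ strand, 1 CpG), which were on in HaCaT only. They do not show the range of each set, as both TIGK windows lie above the median of 22 CpG. In the coordinates deposited with the counts, MRGPRX3 starts at chr11:18120955 and LAMC3 at chr9:131009082. The MRGPRX3 window therefore lies within the counted gene, and the LAMC3 window reaches past the counted start. No GENCODE v44 exon overlaps the 4 windows, and each is written 5′ to 3′ on the strand of its gene.
FBLN2: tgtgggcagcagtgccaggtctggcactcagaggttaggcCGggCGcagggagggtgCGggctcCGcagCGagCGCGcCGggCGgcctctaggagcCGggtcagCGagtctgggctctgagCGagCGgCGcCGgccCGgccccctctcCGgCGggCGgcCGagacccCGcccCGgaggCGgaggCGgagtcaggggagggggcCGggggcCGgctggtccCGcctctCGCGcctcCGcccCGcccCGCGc
LAMC3: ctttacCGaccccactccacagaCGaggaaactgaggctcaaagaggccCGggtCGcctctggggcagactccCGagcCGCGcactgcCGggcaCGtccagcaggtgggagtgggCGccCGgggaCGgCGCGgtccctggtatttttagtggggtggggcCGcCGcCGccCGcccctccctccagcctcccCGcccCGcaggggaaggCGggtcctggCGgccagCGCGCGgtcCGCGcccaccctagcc
MXRA5: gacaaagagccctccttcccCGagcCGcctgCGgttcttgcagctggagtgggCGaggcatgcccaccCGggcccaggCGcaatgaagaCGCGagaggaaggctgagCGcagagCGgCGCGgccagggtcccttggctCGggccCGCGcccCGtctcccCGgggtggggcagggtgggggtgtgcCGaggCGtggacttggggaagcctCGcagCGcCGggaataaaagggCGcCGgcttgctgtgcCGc
MRGPRX3: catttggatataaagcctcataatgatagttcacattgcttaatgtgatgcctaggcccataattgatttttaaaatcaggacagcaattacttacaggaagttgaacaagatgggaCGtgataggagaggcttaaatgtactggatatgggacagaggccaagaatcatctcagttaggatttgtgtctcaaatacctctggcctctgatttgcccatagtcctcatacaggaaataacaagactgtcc

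Among the protein-coding genes on in TIGK only, the highest level belonged to UCHL1 (chr4:41256413-41268455), a deubiquitinating hydrolase best known from neurons. It had 4644, 4415 and 4007 raw counts in TIGK and 0 in every HaCaT library, which is at least 4897-fold higher when HaCaT is set to a floor of 3 counts over its 3 libraries. Its mean level was 54.3 RPKM ± 3.41 (SD, n = 3). FKBP10 (chr17:41812680-41823217), a prolyl isomerase of the endoplasmic reticulum that helps collagen to fold, followed with 42.9 RPKM ± 1.25 (SD, n = 3). Its raw counts were 6745, 6282 and 6268 in TIGK and 0, 0 and 2 in HaCaT. BARX1 (chr9:93951622-93955372), a homeobox factor of the developing jaw and stomach, had 22.5 RPKM ± 0.768 (SD, n = 3) and was at least 1576-fold higher. The gap between the libraries of the lines in these genes follows from the rule on raw counts.

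Others among the 10 highest were enzymes and matrix genes. TNFRSF8 (CD30, a receptor of the TNF family) stood at 18.04 RPKM, CMBL, a hydrolase that activates ester drugs, at 17.8 RPKM, MGST1, a membrane-bound glutathione transferase, at 17.7 RPKM and TUSC1 at 17.6 RPKM. HENMT1, which methylates the ends of small RNAs, was at 15.2 RPKM. LAMC3, a laminin chain, and FBLN2, a basement membrane fibulin, were at 12.8 RPKM and 12.6 RPKM. MGST1, CMBL and HENMT1 had no count in untreated HaCaT, with at least 5208-fold, 2340-fold and 1459-fold higher levels in TIGK. Of the non-coding genes on in TIGK only, AC136475.3, LINC00839 and ZNF542P had the highest levels (7.06, 6.17 and 3.68 RPKM). AC136475.3 is annotated as antisense, and since the use of strand in the counting is not given in the sources used here, its reads and those of the opposite gene cannot be told apart.

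Among the protein-coding genes on in HaCaT only the highest level was lower than in TIGK, whereas the median over the 23 genes was 1.54 RPKM, against 1.19 RPKM over the 174 of TIGK. MXRA5 (chrX:3308565-3346641), an adhesion protein of the matrix, led with 3.51 RPKM ± 0.331 (SD, n = 3), from 1827, 1066 and 1225 raw counts in HaCaT and 2, 2 and 0 in TIGK. MRGPRX3, a receptor of the Mas-related family, had 2.94 RPKM ± 0.461 (SD, n = 3) and was at least 182-fold higher, and PLIN2, which coats lipid droplets, had 2.81 RPKM ± 0.0512 (SD, n = 3). GALNT5 (chr2:157257598-157314211), which starts O-linked glycans, and ST6GALNAC5, a sialyltransferase, were at 0 in TIGK and at least 587-fold and 364-fold higher in HaCaT. The list also held the homeobox factor ONECUT3 (at least 551-fold), CCDC152 (at least 218-fold), the decoy receptor IL13RA2, the vitamin B12 carrier TCN1 and the immune ligand CD70. For CD70 the few counts in TIGK gave a ratio of 72.4, with an exact 95% interval from 30.8 to 224 that covers counting error only. The non-coding AL022315.1, RPSAP47 and MT1L reached 12.6, 11.0 and 9.82 RPKM. AL022315.1 is annotated as antisense and has the same limit as AC136475.3. RPSAP47 and MT1L are pseudogenes of families with near-identical members, so the assignment of their reads is uncertain.

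Genes on in TIGK only lay next to each other in several places. ZNF667, ZNF471 and ZFP28 are neighbours within chr19:56439325-56556810, and they were 3 of 12 protein-coding genes with a zinc finger symbol (ZNF, ZSCAN or ZFP) on in TIGK only, 8 of which lie on chromosome 19. GYG2, ARSD and ARSE, of glycogen and sulfate metabolism, are neighbours on chromosome X, as are HLA-DPA1 and HLA-DPB1 on chromosome 6 and PYGO1 and PRTG on chromosome 15. These neighbours were named after their values were seen.

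The largest differences among well expressed genes were taken only from genes whose libraries did not overlap between the lines, as in 72.7% of all genes. On the HaCaT side, NLRP2, a sensor of the NLR family, had 4788, 4645 and 4504 normalized counts in HaCaT and 10.5, 2.13 and 0 in TIGK (10.05 ± 0.20, adjusted p = 7.65e-15). KRT7, a keratin of simple epithelia, had 12477, 12528 and 12647 in HaCaT and 58.6, 11.7 and 2.15 in TIGK (9.00 ± 0.26). HS3ST2, a heparan sulfate sulfotransferase, had 4342, 4318 and 4186 against 8.37, 19.2 and 11.8 (8.34 ± 0.12). In the plot of the largest differences these genes reach the highest HaCaT levels, and each has counts in at least 1 TIGK library. TMEM200A (9.77 ± 0.26), the transcription factor TFCP2 (8.79 ± 0.29) and CPS1, the entry enzyme of the urea cycle (8.52 ± 0.25), completed the group beside GALNT5, ONECUT3, MXRA5 and PLIN2.

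On the TIGK side 8 of the 9 genes given here had no count in any untreated HaCaT library. Besides MGST1, UCHL1, CMBL, BARX1, HENMT1 and FKBP10, these were IKZF3, LRP3 and NKX2-5. IKZF3 (Aiolos), a lymphoid zinc finger factor, had 1333, 1177 and 1260 normalized counts in TIGK and was at least 1331-fold higher. NKX2-5, a factor of the heart and pharynx, had 943, 895 and 868 and was at least 955-fold higher. LRP3, a lipoprotein receptor relative, had 851, 953 and 968 and was at least 977-fold higher. Factors best known from other organs were thus among the genes that differed most.

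**Figure D1:**
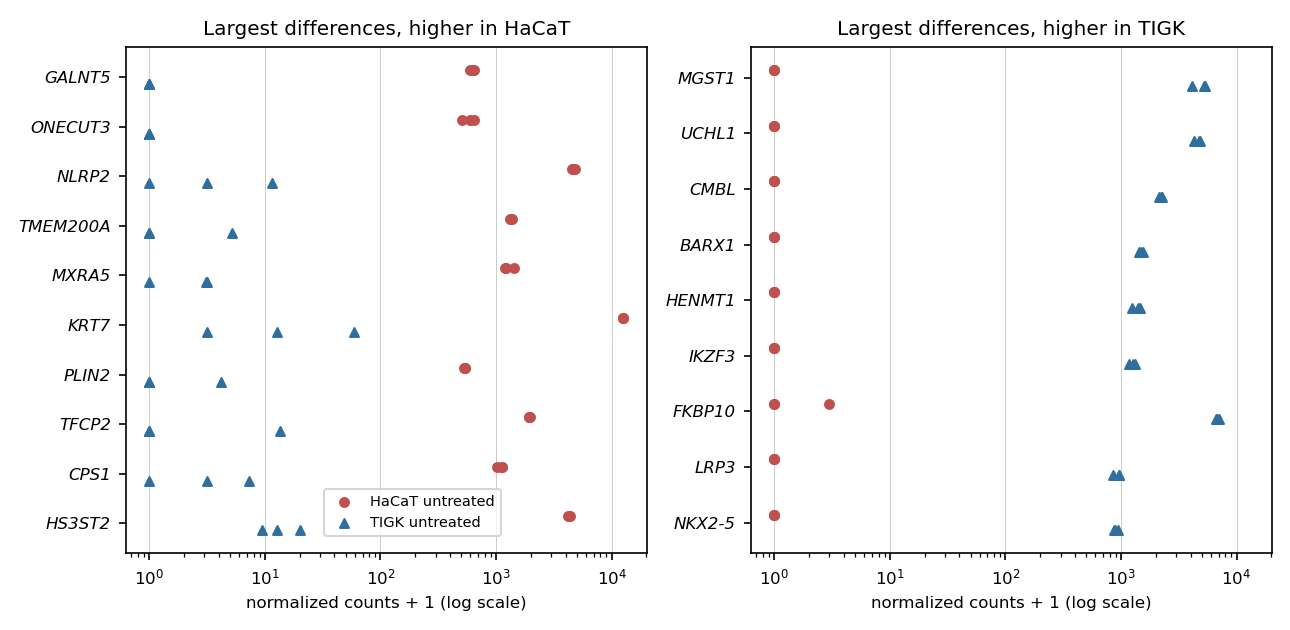
Normalized counts plus 1 on a log axis for the 10 largest differences higher in HaCaT and 9 of the largest higher in TIGK, with a circle for each untreated HaCaT library and a triangle for each untreated TIGK library. In the right panel all HaCaT libraries sit at a count of 0 except 1 library of FKBP10, and in the left panel TIGK is at 0 in all libraries of GALNT5 and ONECUT3.

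Members of 20 gene lists are given next, and list counts are read against the shares over all genes (28.5% higher in HaCaT, 31.3% higher in TIGK). Of 30 keratins tested, 9 were higher in HaCaT and 16 in TIGK, with a median difference of -0.37. The basal pair was abundant in both lines. KRT5 had 507779, 509091 and 486084 normalized counts in HaCaT and 707410, 697686 and 686331 in TIGK (-0.48 ± 0.04), and its partner KRT14 did not pass the limit (0.08 ± 0.05, adjusted p = 0.161). The whole keratin family took 3.96% to 4.25% of the counts in HaCaT and 5.11% to 5.20% in TIGK. KRT5 and the wound keratin KRT6A, at 4356 and 3823 RPKM, were the highest genes of the nuclear genome in TIGK, whereas the 5 highest genes in HaCaT were all mitochondrial. KRT6A was lower in HaCaT by a small amount (-0.25 ± 0.04), and reads of KRT6A and its near-identical relatives may be split.

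Keratins outside the basal layer differed more. Beside KRT7, the HaCaT side held KRT3, a keratin of the cornea, with 1275, 1108 and 699 normalized counts against 2.09, 12.8 and 3.22, and KRT81, a hair keratin, with 1159, 1148 and 1041 against 52.3, 19.2 and 20.4 (5.17 ± 0.21). The other 5 hair and nail keratins tested were higher in TIGK, with KRT34 at 154, 146 and 157 and at 0 in HaCaT, KRT75 at 395, 445 and 457 against 0, 8.99 and 0 (-7.34 ± 0.43) and KRT84 at -4.57 ± 0.63. Of 4 mucosal differentiation keratins tested, 2 were higher in HaCaT and 2 in TIGK, and of 7 epidermal ones 2 and 3. Some differentiation keratins are named here after their values were seen, so they do not stand for these groups. KRT13, typical of non-cornified mucosa, had 13481, 13474 and 13103 in TIGK against 863, 664 and 563 in HaCaT (-4.25 ± 0.11), and KRT19 had 56586, 54314 and 53421 against 3738, 3822 and 3087 (-3.95). KRT1, the first keratin of cornifying epidermis, went the other way with 34509, 31284 and 22937 in HaCaT and 3228, 3615 and 3562 in TIGK (3.09 ± 0.12), while its partner KRT10 was higher in TIGK (-1.19).

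The cornified envelope list was divided: 17 of 49 members were higher in HaCaT and 21 in TIGK (median -0.14). FLG, the filaggrin that bundles keratin in the horny layer, had 19573, 17562 and 22883 normalized counts in HaCaT and 170, 176 and 265 in TIGK (6.62 ± 0.14, adjusted p = 1.43e-14). CASP14, the protease that processes filaggrin, had 1760, 1402 and 1237 against 82.7, 35.2 and 88.0 (4.42 ± 0.21), and the late envelope gene LCE1C was also higher in HaCaT (5.07 ± 0.51). On the TIGK side stood SPRR3, a small proline-rich protein abundant in oral and oesophageal lining, with 254, 279 and 290 against 22.5, 5.62 and 7.01 (-4.43 ± 0.32). S100A9, a subunit of calprotectin, had 8232, 7240 and 5834 in TIGK and 289, 261 and 250 in HaCaT (-4.73 ± 0.12). Of 12 S100 genes, 4 were higher in HaCaT and 7 in TIGK. Among them S100A11, the one with the highest RPKM, passed the limit by little (0.18 ± 0.05, adjusted p = 0.0044), and its call was lost without any 1 of the HaCaT libraries or TIGK replicate 2 (differences from 0.15 to 0.19) and when scaled by library totals alone (0.12).

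HOX genes were mostly higher in HaCaT. Of 24 HOX genes tested, 17 were higher in HaCaT and 3 in TIGK, with a median difference of 1.66. In the HOXA cluster 8 of 10 were higher in HaCaT and 0 in TIGK, and in the HOXC cluster 6 of 8 and 1. HOXA9 had 1530, 1491 and 1571 normalized counts in HaCaT and 43.96, 34.1 and 23.6 in TIGK (5.49 ± 0.14). HOXC12 had 493, 466 and 567 against 6.28, 21.3 and 9.66 (5.34 ± 0.25), and HOXD10 had 538, 586 and 520 against 29.3, 8.54 and 25.8 (4.68 ± 0.23). TIGK was the higher line for HOXB6 (-5.60 ± 0.83, at 22.0, 22.4 and 19.3 in TIGK), HOXD8 (-2.05 ± 0.42) and HOXC13, a factor of hair and nail (-0.60 ± 0.09), which had the highest HOX level per length in TIGK, with 732, 751 and 840. So HOX expression was not absent from the gingival line, but it was low for most members.

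Regional factors of the head showed the opposite balance. Of 26 tested genes of the oral and pharyngeal group, 3 were higher in HaCaT and 21 in TIGK, with a median of -1.62, and 16 of these were at least 2-fold higher in TIGK and 0 in HaCaT. Beside BARX1, the developmental factors EYA2 and ZIC5 were on in TIGK only, with 79.5, 77.9 and 74.0 normalized counts for EYA2 and 98.4, 108 and 77.3 for ZIC5. EYA4 had 359, 293 and 366 in TIGK and 1.55, 0 and 0 in HaCaT (-8.82 ± 0.38). PITX1, a factor of the oral epithelium and the hindlimb, was well expressed in both lines, with 3810, 3690 and 3948 in TIGK and 1286, 1279 and 1239 in HaCaT (-1.59 ± 0.06). LHX6 of the developing teeth and jaws, named after its values were seen, had 1473, 1446 and 1513 in TIGK and 10.1, 7.87 and 6.01 in HaCaT (-7.48). In the trunk and limb group of 16 genes the counts were 3 and 7 (median -0.07), and 2 and 6 at least 2-fold. Of the 4 genes of both groups on in TIGK only, 3 were in the oral and pharyngeal group and 1 in the trunk and limb group. The HaCaT genes with the largest differences in the 2 groups together were MEIS3, a HOX cofactor (2.74 ± 0.25), and TBX3 (1.03 ± 0.14).

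**Figure D2:**
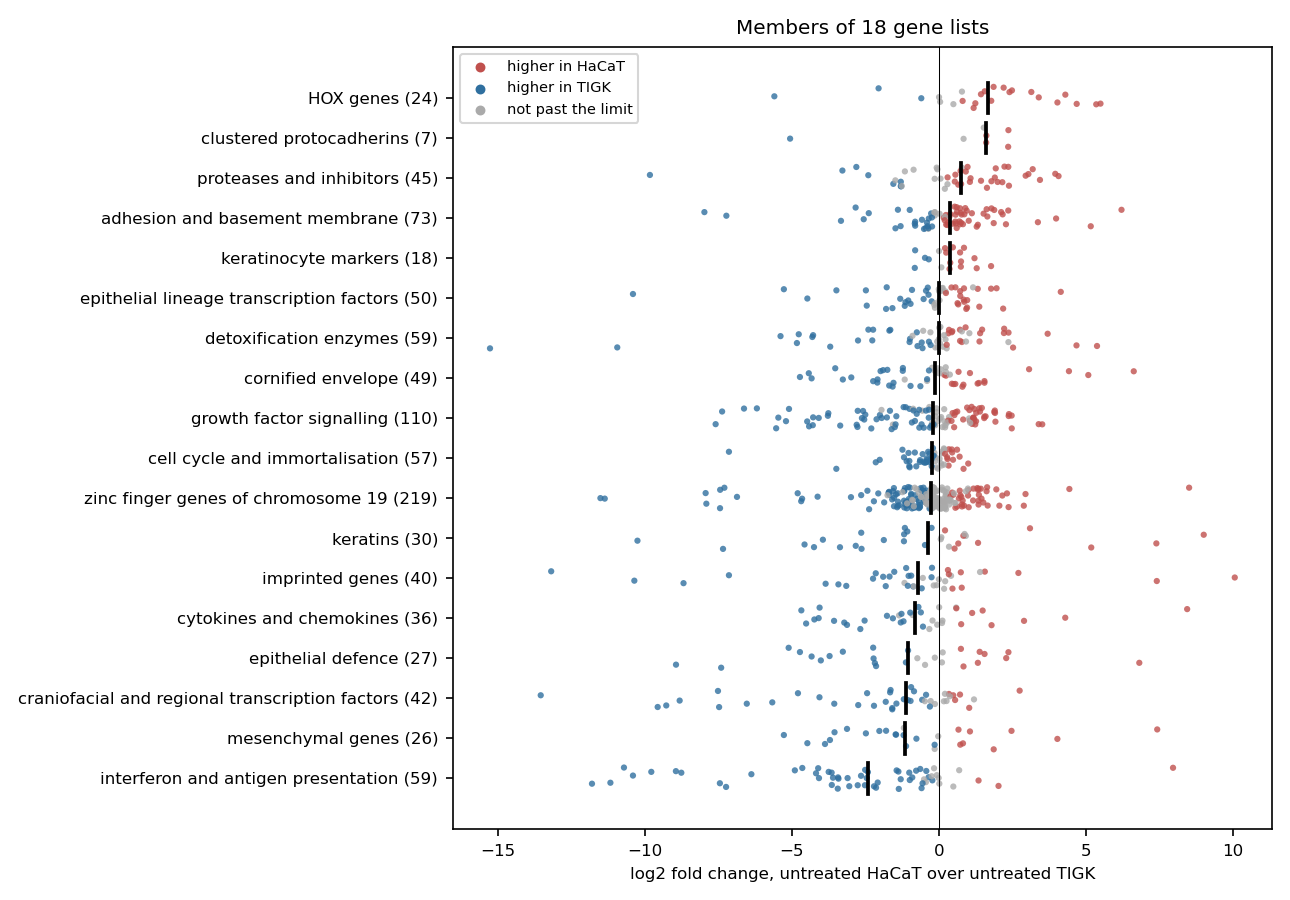
Each point is a tested gene of a list placed by its log2 fold change of untreated HaCaT over untreated TIGK, with the number of genes in brackets and a black bar at the list median. The HOX list has its median at 1.66, and the interferon and antigen presentation list has the lowest median of the lists plotted at -2.42.

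Transcription factors that set epithelial identity were balanced, with 19 of 50 higher in HaCaT, 20 in TIGK and a median of 0.01. TP63, the master factor of stratified epithelia, was higher in HaCaT (0.85 ± 0.05), as were SOX9 (2.18 ± 0.07), RUNX1 (1.96 ± 0.05) and RARB (4.14 ± 0.83). TFAP2A, another keratinocyte factor, differed by 0.00 ± 0.05 (adjusted p = 0.993). STAT5A was on in TIGK only, with 167, 179 and 161 normalized counts. ZEB2 (-5.27 ± 0.62) and SNAI1 (-4.48 ± 0.54), repressors of E-cadherin, were higher in TIGK at low counts, while CDH1, E-cadherin itself, was also higher in TIGK (-0.82 ± 0.05).

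Adhesion genes leaned towards HaCaT: 44 of 73 were higher there and 23 in TIGK, with a median of 0.38. Cell junction genes were counted 24 to 8 and integrins 8 to 3, while laminins and collagens were even at 12 to 12. LAMB3, a chain of the laminin that anchors epidermis, had 91076, 86430 and 92869 normalized counts in HaCaT and 56718, 53693 and 50625 in TIGK (0.75 ± 0.05). LAMA1, a laminin chain of embryonic basement membrane, stood far on the other side with 3353, 3667 and 4004 in TIGK and 15.5, 10.1 and 17.0 in HaCaT (-7.98 ± 0.13, adjusted p = 1.13e-15). CLDN11, a tight junction claudin (-7.23 ± 0.48), and the basement membrane linker NID1 (-3.33 ± 0.06) were also higher in TIGK. Among the cadherins, DSG4 of hair and upper epidermis (6.20 ± 0.60), CDH4 (5.16 ± 0.13) and CDH13 (3.98 ± 0.07) were higher in HaCaT. CDH13 had 5323, 5091 and 5539 against 362, 305 and 343. P-cadherin, CDH3, was higher in TIGK (-0.81 ± 0.05).

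Proteases and their inhibitors leaned towards HaCaT, with 26 of 45 higher there and 8 in TIGK (median 0.73). In the plasminogen and serpin group it was 12 of 17 and 2, with a median of 1.78. SERPINB5 (maspin) had 105925, 104894 and 108450 normalized counts in HaCaT and 23090, 23064 and 22150 in TIGK (2.22 ± 0.04), and SERPINB2, an inhibitor of plasminogen activators, had 20098, 18899 and 19351 against 1318, 1230 and 942 (4.06 ± 0.09). SERPINB9, which blocks granzyme B, was on in TIGK only at 138, 126 and 76.2. The kallikreins KLK1 (3.95 ± 0.36) and KLK7, which cuts desmosomes during shedding (3.43 ± 0.19), were higher in HaCaT, within a group counted 7 to 2. TIMP2, an inhibitor of metalloproteinases, was higher in TIGK (-3.28 ± 0.07), as was SPINK7 (-2.81 ± 0.42).

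Interferon and antigen presentation genes were mostly higher in TIGK: 3 of 59 were higher in HaCaT and 47 in TIGK, with a median of -2.42, the lowest of the 18 lists plotted. The cancer-testis list, which had 5 tested genes and was not plotted, had a lower median (-2.74). In the interferon-stimulated group, 2 of 41 were higher in HaCaT and 34 in TIGK, 30 of them at least 2-fold, and the median was -3.05. BST2 (tetherin), which holds budding virus at the membrane, had 8485, 8468 and 7930 normalized counts in TIGK and 1.55, 5.62 and 0 in HaCaT (-11.80 ± 0.16, adjusted p = 3.51e-16). IFI44L and MX2 were on in TIGK only, at 210, 205 and 212 and at 164, 180 and 163. HERC5, the ligase that attaches ISG15, had 832, 828 and 850 against 2.33, 2.25 and 0 (-8.94 ± 0.24). For IFI44L, MX2 and HERC5, all on in TIGK only, the lack of overlap follows from that rule. The libraries did not overlap in BST2 either.

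Other members of this group are named after their values were seen. IFI6 had 3980, 4048 and 3628 in TIGK and 3.89, 11.2 and 13 in HaCaT (-8.76 ± 0.15), MX1 had 2060, 2013 and 2265 against 13.2, 13.5 and 15.0 (-7.24), and ISG15 had 1419, 1475 and 1221 against 129, 96.7 and 99.1 (-3.65 ± 0.12). Of the factors that carry the interferon signal, STAT2 and IRF9 differed far less. STAT2 had 1287, 1373 and 1489 in TIGK and 889.8, 983 and 880 in HaCaT (-0.59), and IRF9 did not pass the limit (-0.25 ± 0.26, adjusted p = 0.409). Against the rest of the group, IFITM2, a membrane protein that blocks viral entry, had 675, 628 and 634 in HaCaT and 1.05, 6.40 and 0 in TIGK (7.95 ± 0.30), and IFITM1 was higher in HaCaT as well (2.02 ± 0.26). Their neighbour IFITM3 did not pass the limit (-0.01 ± 0.06, adjusted p = 0.849), and the 3 genes are close relatives between which reads may be split.

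**Figure D3:**
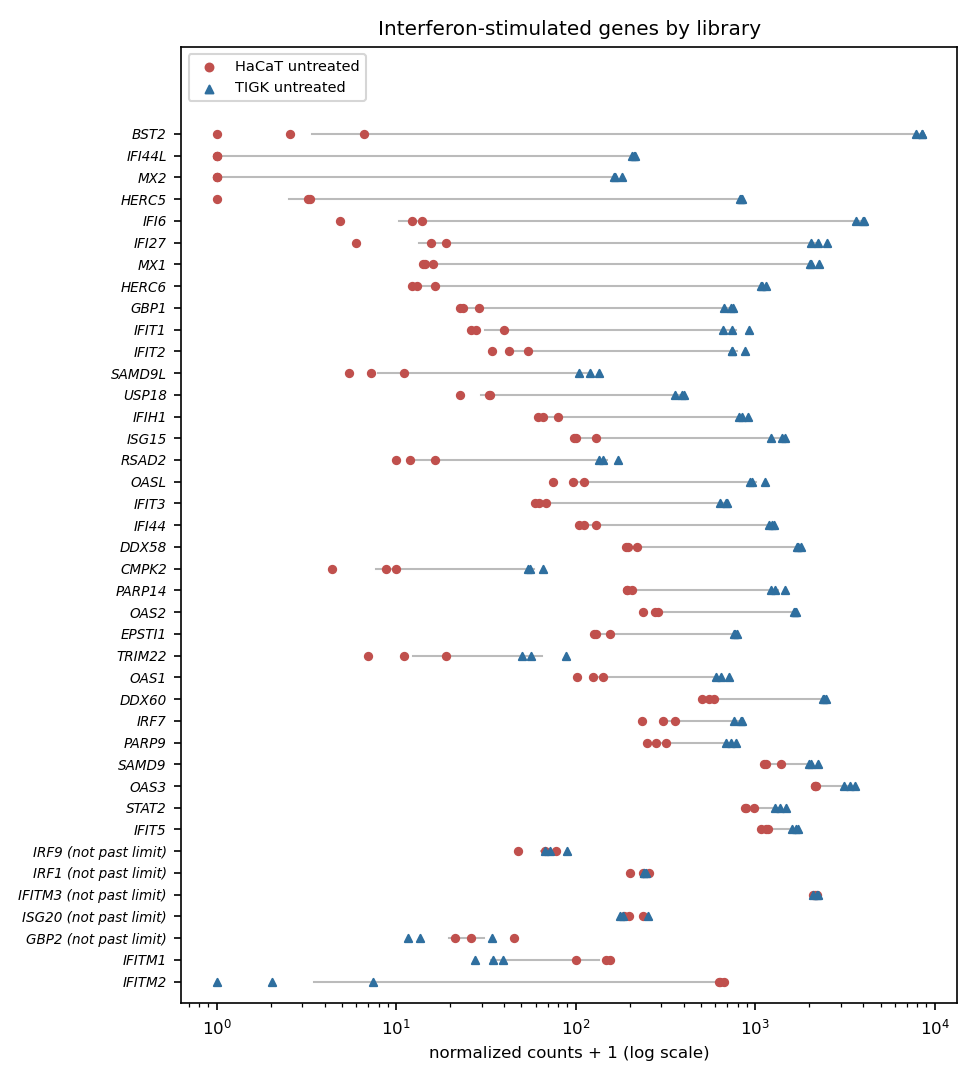
Normalized counts plus 1 on a log axis for 40 of the 41 interferon-stimulated genes tested, with circles for untreated HaCaT and triangles for untreated TIGK libraries and a grey line between the means. TIGK lies to the right for most genes, and IFITM2 and IFITM1 at the bottom lie the other way.

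The element bound by the interferon-activated factors was searched as GAAA, any 2 bases and GAAA again, on both strands and with overlaps counted, in the 250 bases before the start. It was in 2.31% of all windows of protein-coding genes tested, and in 24 of the 41 interferon-stimulated genes (58.5%). It was in 21 of the 34 that were higher in TIGK (61.8%) and in 3 of the 7 that were not (42.9%), so the letters were present on both sides. A match is a description and not a bound site. The windows of HERC5 at chr4:88456869-88457118 (+ strand, 3 copies), ISG15 at chr1:1013247-1013496 (+ strand, 2 copies) and IFITM3 at chr11:320861-321110 (- strand, 2 copies) show the element in capitals, beside a large, a moderate and no called difference. In HERC5 it reads on the opposite strand.
HERC5: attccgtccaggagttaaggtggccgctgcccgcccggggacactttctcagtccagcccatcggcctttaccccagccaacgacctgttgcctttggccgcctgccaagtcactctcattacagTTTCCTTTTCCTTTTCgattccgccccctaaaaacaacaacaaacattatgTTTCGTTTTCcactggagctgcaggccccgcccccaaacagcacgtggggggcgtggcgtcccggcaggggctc
ISG15: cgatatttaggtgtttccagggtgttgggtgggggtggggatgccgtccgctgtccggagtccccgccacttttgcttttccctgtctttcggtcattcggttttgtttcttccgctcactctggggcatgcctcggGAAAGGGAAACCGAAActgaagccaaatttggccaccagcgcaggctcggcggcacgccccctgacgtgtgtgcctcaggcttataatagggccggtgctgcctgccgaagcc
IFITM3: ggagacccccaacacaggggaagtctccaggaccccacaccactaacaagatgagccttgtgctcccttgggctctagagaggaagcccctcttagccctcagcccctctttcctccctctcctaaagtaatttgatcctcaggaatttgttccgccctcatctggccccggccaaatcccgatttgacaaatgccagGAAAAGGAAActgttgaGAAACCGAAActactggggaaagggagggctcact

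Antigen presentation genes followed with smaller differences, 1 of 18 higher in HaCaT and 13 in TIGK (median -0.95). The class II genes HLA-DPB1, at 255, 291 and 318, and HLA-DPA1, at 100, 115 and 114 normalized counts, were on in TIGK only. HLA-B had 10963, 10609 and 9649 in TIGK and 640, 657 and 512 in HaCaT (-4.11). It was named after its values were seen, and the count of such genes depends on how well the alleles of a line match the reference. HLA-E, an inhibitory ligand, did not pass the limit (-0.17 ± 0.06, adjusted p = 0.0188). CD274 (PD-L1) was the only member of the group higher in HaCaT (1.34 ± 0.15).

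Defence genes and cytokines also leaned towards TIGK. Of 27 defence genes, 8 were higher in HaCaT and 14 in TIGK (median -1.05). TLR2, the receptor for bacterial lipoproteins, had 1846, 1695 and 2154 normalized counts in TIGK and 46.6, 68.6 and 52.1 in HaCaT (-5.11 ± 0.14), whereas TLR4, the receptor for endotoxin, was higher in HaCaT at 51.3, 48.3 and 61.1, against 0, 1.07 and 0 in TIGK (6.81 ± 0.69). MUC15 was higher in TIGK (-7.41 ± 0.53) and DMBT1, a scavenger receptor of saliva, in HaCaT (2.36 ± 0.24), while PI3 (elafin) did not pass the limit (0.10 ± 0.06, adjusted p = 0.14). Of 10 chemokines, 1 was higher in HaCaT and 8 in TIGK, with a median of -2.22. CXCL14, which skin and mucosa make at rest, had 6995, 6960 and 6280 against 992, 735 and 421 (-3.22 ± 0.19), and CXCL2 (-4.24 ± 0.23), CCL20 (-4.68 ± 0.42) and CCL5 (-4.52 ± 0.66) were higher in TIGK too. CXCL6, a neutrophil attractant, was the exception at 48.2, 57.3 and 24.0 in HaCaT and 0 in TIGK. Over all 36 cytokine and chemokine genes, 8 were higher in HaCaT and 19 in TIGK (median -0.80), and of 26 interleukin and receptor genes 7 and 11. Among the 7 were the antagonist IL1RN (1.79 ± 0.07), IL24 (2.89 ± 0.30) and IL37 (4.29 ± 0.72).

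Growth factor pathways had many differences in both directions, 37 of 110 members higher in HaCaT and 50 in TIGK (median -0.21). SHH, the hedgehog ligand, had 196, 190 and 143 normalized counts in TIGK and 2.33, 0 and 0 in HaCaT (-7.37 ± 0.48). GDF15, a stress-induced member of the TGF-beta family (-6.63 ± 0.61), and LEF1, a nuclear effector of WNT (-5.46 ± 0.41), were higher in TIGK, and WNT11 was seen at 33.5, 20.3 and 18.2 in TIGK with 0 in HaCaT. On the HaCaT side stood TGFB2 (3.51 ± 0.19), BMP6 (3.39 ± 0.09), the BMP antagonist NOG (2.47 ± 0.31) and FGFBP1, a carrier of FGF (1.39 ± 0.07). AREG (amphiregulin), an EGF receptor ligand with the highest RPKM of the list in TIGK, did not pass the limit (-0.24 ± 0.08, adjusted p = 0.0184).

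Genes of the cell cycle differed often but by little: 12 of 57 were higher in HaCaT and 32 in TIGK (median -0.25), and at least 2-fold 0 and 10. In the cyclin and kinase group it was 4 and 22 of 31. Of these 10 genes, 4 were in the cyclin and kinase group, and the 3 largest differences were in inhibitors of cyclin-dependent kinases. CDKN2A, which encodes p16 and ARF, had 8773, 8776 and 7749 normalized counts in TIGK and 854, 706 and 680 in HaCaT (-3.49 ± 0.08), and CDKN1C (p57) had 644, 621 and 650 against 6.99, 5.62 and 0 (-7.14 ± 0.28). CDKN2C was also higher in TIGK (-2.15 ± 0.25), while CDKN1A (p21) was higher in HaCaT (0.83 ± 0.07), as were CCND2 (0.99 ± 0.08) and ATR (0.70 ± 0.07). TERT, the gene used to immortalize TIGK, is named for that reason: it had 339, 345 and 365 in TIGK and 107, 84.3 and 65.1 in HaCaT (-2.02 ± 0.17), and reads of an introduced and an endogenous copy cannot be told apart.

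Detoxification enzymes were balanced, 19 of 59 higher in HaCaT and 22 in TIGK (median 0.01). GSTP1, with the highest RPKM of the list in both lines, did not pass the limit (-0.04 ± 0.06, adjusted p = 0.563). ALDH5A1, of GABA breakdown, was on in TIGK only at 239, 224 and 273 normalized counts, and CYP2J2 was higher there (-5.39 ± 0.46). CYP4F12 (5.37 ± 0.44), ALDH1A1, which makes retinoic acid (4.67 ± 0.60), and ALDH3A1 (3.69 ± 0.45) were higher in HaCaT.

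Imprinted genes are expressed from a single parental copy, and cancer-testis genes are silent in most adult tissues. Of 40 imprinted genes, 9 were higher in HaCaT and 21 in TIGK (median -0.72). H19, a non-coding RNA expressed from the maternal chromosome, had 7445, 20518 and 10704 normalized counts in TIGK and 0, 0 and 4.00 in HaCaT (-13.18 ± 0.60), with a wide spread among the TIGK libraries. MEG3 went the other way at 419, 351 and 370 in HaCaT and 0, 2.13 and 4.29 in TIGK (7.40 ± 0.33), and PLAGL1 was on in TIGK only at 119, 189 and 184. Of 55 cancer-testis genes listed, 5 passed the filter. LIN28B, a regulator of let-7 (279, 341 and 364), and MAGEA6 (178, 180 and 126) were on in TIGK only, and DDX43 was higher in HaCaT (4.74 ± 0.33). Of 7 protocadherin beta genes tested, 4 were higher in HaCaT, among them PCDHB10 (2.36 ± 0.48), and PCDHB5 was higher in TIGK (-5.06 ± 0.50). PCDHB12 (1.61 ± 0.44, adjusted p = 0.00464) lost its call without HaCaT replicate 1, HaCaT replicate 2 or TIGK replicate 3 (1.52, 1.61 and 1.37) and with a replicate block (1.63, adjusted p = 0.0115).

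Zinc finger genes of chromosome 19, many of which repress repeats, were counted 40 to 86 of 219 (median -0.28). Over all 1166 tested genes of that chromosome, 300 (25.7%) were higher in HaCaT and 458 (39.3%) in TIGK (median -0.24). The tilt towards TIGK was therefore present in the chromosome as a whole. A difference between the list and the rest of that chromosome was not tested. ZNF677, ZNF667, ZNF556, ZNF415, ZNF471 and ZNF582 were on in TIGK only and none of the list in HaCaT only. ZNF626 had 52.8, 37.1 and 45.0 normalized counts in HaCaT and 0 in all TIGK libraries, and ZNF554 was higher in HaCaT too (2.94 ± 0.28).

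Mesenchymal genes were more often higher in TIGK, 15 of 26 against 8 in HaCaT (median -1.16). TPM2, a tropomyosin, had a difference of -3.88 ± 0.08. VIM, the filament of mesenchymal cells, was low in both lines, with 83.1, 126 and 126 normalized counts in HaCaT and 7.33, 11.7 and 1.07 in TIGK (4.02 ± 0.45), and the matrix protein POSTN (7.42 ± 0.33) and the ectoenzyme NT5E (2.46 ± 0.07) were higher in HaCaT. CAV1, with the highest RPKM of the list in both lines, differed by -0.15 ± 0.04 (adjusted p = 0.0055), a call that was lost without any 1 library except TIGK replicate 3 (from -0.15 to -0.14) and in the fit to all 12 libraries (-0.12). The part of other cell types in these differences was not tested. Fibroblast markers summed to 8.53 to 11.2 CPM in HaCaT and 22.6 to 24.4 CPM in TIGK, with DCN (-5.30 ± 0.34) and COL1A1 (-0.77 ± 0.11) higher in TIGK and COL1A2 at 0. Melanocyte markers summed to 4.22 to 5.20 CPM and 12.1 to 12.7 CPM, with MITF higher in TIGK (-1.89 ± 0.16), and leukocyte markers to 0.157 to 0.505 CPM and 2.58 to 3.80 CPM, with CD14 at -3.75 ± 0.52. PMEL (0.12 ± 0.31), MLANA (1.47 ± 0.75) and CHGA (0.55 ± 0.43) did not pass the limit. VWF (1.88 ± 0.46, and 1.64 with no call without HaCaT replicate 2) and SYP (1.87 ± 0.27) were higher in HaCaT.

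The differences were not spread evenly over the chromosomes. Genes of chromosome 4 had a median of -0.67, with 371 of 596 (62.2%) higher in TIGK and 7.89% higher in HaCaT, and those of chromosome 16 a median of -0.33. Genes of chromosomes 9, 18, 10, 13 and 3 had medians of 0.45, 0.40, 0.37, 0.31 and 0.26. The medians also varied along single chromosomes: among 155 stretches of 20 Mb with at least 20 tested genes, the medians ran from -1.20, for the stretch of chromosome 4 from 20 Mb in which 35 of 44 genes were higher in TIGK, to 1.43, for the first stretch of chromosome 10, in which 77 of 98 were higher in HaCaT. All 10 stretches of chromosome 4 were below 0 and 0 of the 7 of chromosome 10 were. On chromosome 18 the first stretch, which holds LAMA1, had a median of -0.68 and the next 3 had 0.46, 0.82 and 0.80. All 16 mitochondrial genes tested were higher in HaCaT (median 0.92), with MT-CO2 (1.09 ± 0.05) and MT-RNR2 (1.61 ± 0.04) among them, at 11503 and 8409 RPKM in HaCaT and 5396 and 2755 RPKM in TIGK.

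Families that lie together on chromosome 18 differed mostly in the same direction. All 8 serpin B genes of that chromosome that were tested were higher in HaCaT, from 0.73 to 4.06, with a median of 2.29. Of 7 desmoglein and desmocollin genes, 6 were higher in HaCaT, DSC2 was higher in TIGK (-0.37, named after its value was seen), and the median was 0.72. The stretches that hold them were themselves shifted towards HaCaT, as given above.

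**Figure D4:**
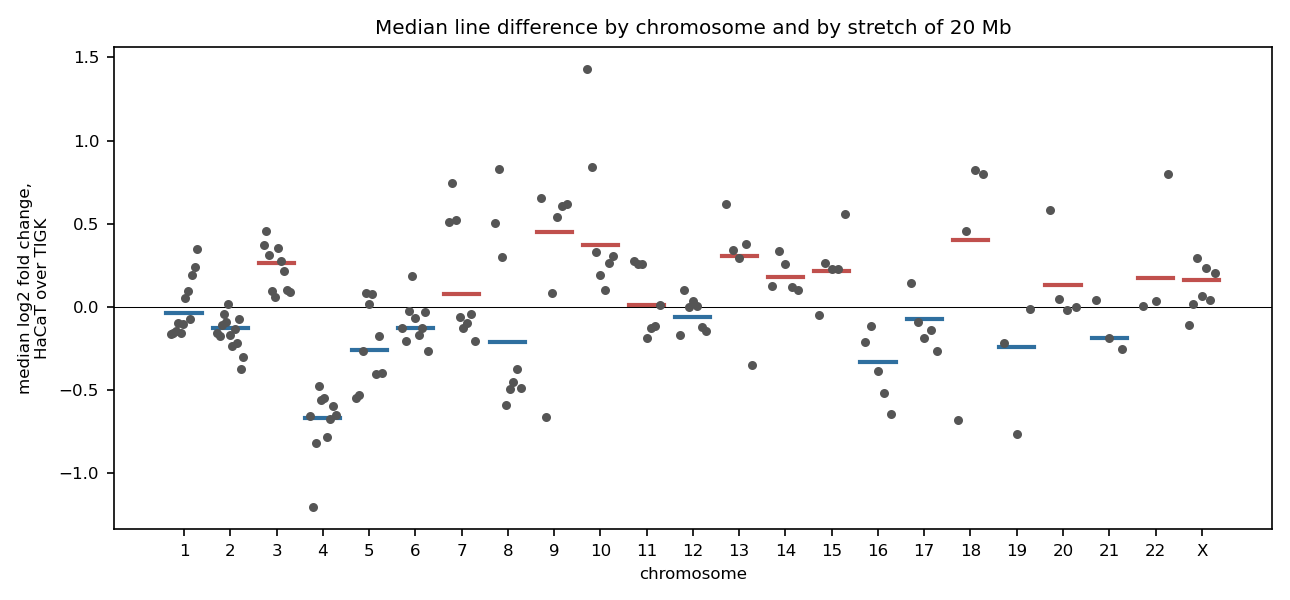
Median log2 fold change of untreated HaCaT over untreated TIGK for each chromosome (bars, red above 0 and blue below) and for each stretch of 20 Mb with at least 20 tested genes (points, in order along the chromosome). Chromosome 4 lies below 0 in all of its 10 stretches, and the first stretch of chromosome 10 is the highest at 1.43.

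Most baseline differences were also present in the H2O2 libraries, which are separate samples of the same lines. Of the 10144 genes called at baseline, 9785 (96.5%) had the same sign after H2O2 and 8028 (79.1%) were also called with the same sign, where 55.4% of all genes were called in either direction. Of the 4590 genes at least 2-fold apart at baseline it was 3985 (86.8%), and 56 genes were called in opposite directions. The line difference itself changed after H2O2 in 903 genes (5.32%) by a test of that change. Among the interferon-stimulated genes 33 of the 34 higher in TIGK were called there again, and among HOX genes 16 of the 17 higher in HaCaT but 0 of the 3 higher in TIGK. Cell cycle genes kept fewer, 7 of 12 and 20 of 32, and the zinc finger genes kept 18 of 40 and 68 of 86. SOX9 went from 2.18 to 0.76 and LEF1 from -5.46 to -2.47, while KRT81 went from 5.17 to 7.29.

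**Figure D5:**
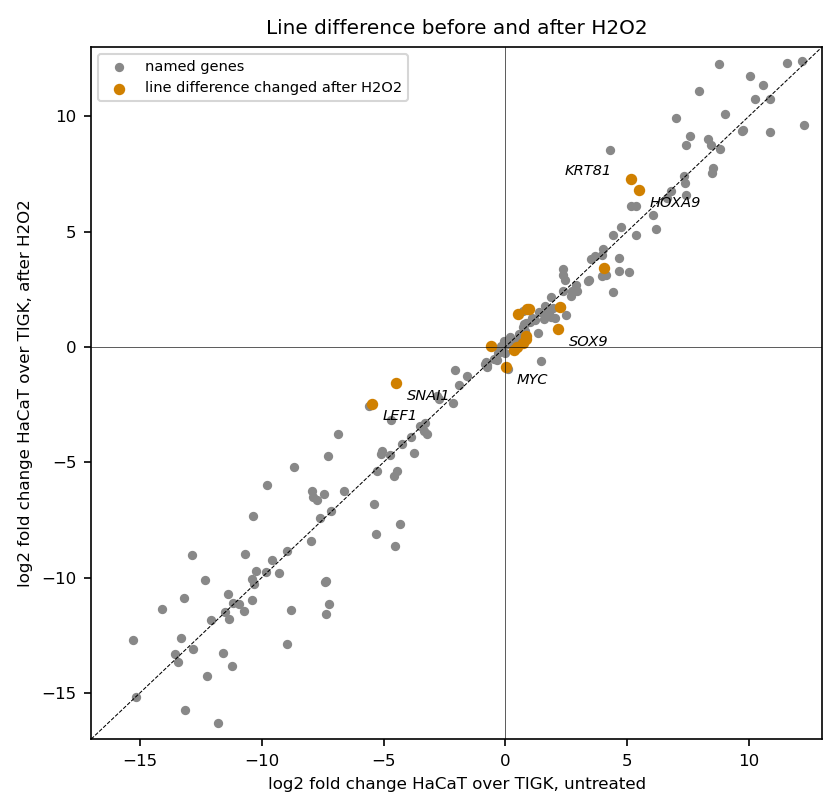
Log2 fold change of HaCaT over TIGK in the H2O2 libraries against that in the untreated libraries for the 191 named genes, with the dashed line at equal values. Orange points mark the 17 genes whose line difference changed, among them SOX9, which lies below the line, and KRT81 and LEF1, which lie above it.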

How the data were processed

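Of the 12 libraries, the 3 untreated HaCaT and 3 untreated TIGK libraries were grouped by the line and treatment in their labels. The authors deposited raw read counts per gene, whole numbers without normalization, from reads mapped to GRCh38 (per the labels and methods, HISAT2 2.0.5 or 2.0.0, StringTie 1.3.3b and featureCounts 1.5.0-p3). They also deposited log2 fold changes and p-values of their own comparisons made with DESeq2, which were not used. Gene lengths were taken from the deposited count table. The annotation release, use of strand and treatment of multi-mapped reads are not given in the sources used here. Of the symbols, 27 had become dates and 1568 genes repeated another gene's symbol, so identifiers were used.

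Genes with a mean count of at least 10 were fitted with edgeR 4.0.16 in R 4.3.3 (quasi-likelihood test, TMM factors from 0.976 to 1.03, 1 mean per line, common dispersion 0.00619). P-values were adjusted over all 16960 genes by the Benjamini-Hochberg method, with a limit of 0.01, and a 2-fold limit is a log2 difference of 1. The change of the line difference after H2O2 was tested in the same model over all 12 libraries. RPKM used the deposited lengths. Python 3.11.15 with pandas 2.3.3, scipy 1.17.1 and matplotlib 3.10.9 made the summaries and figures, and the model was tested on simulated data. Replicates differed by more than counting noise (chi-square divided by its degrees of freedom, 4.69 to 15.0), so p-values measure the spread between these libraries, which may be technical. Replicate numbers are names. Floors and intervals cover counting error only. Stretches of chromosomes were cut every 20 Mb by gene start.

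The genes and lists were chosen with earlier results of these data known, and the lists were written by hand. Named were the 10 largest differences in each direction among protein-coding genes with a mean of at least 500 normalized counts in the higher line. Also named were the 10 protein-coding and 3 non-coding genes with the highest RPKM on in a single line. So were the 5 highest genes of each line and the markers of cell types. Per list, the highest member of each line and those on in a single line were named. The 3 largest differences of a list in each direction at an adjusted p under 0.01 were named too. Other genes are marked in the text as chosen after their values were seen. Where a gene has 0 counts in a line, its fitted difference depends on the prior count, and bounds are given instead. No list median changed when such genes were set to their bound. At most 4 genes of a list were set so, all far from its median, so this check could hardly move it. The alternatives were DESeq2 1.42.0, other scalings, filters and limits, a replicate block and leaving out each library. A few values are not reported here.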

Additional observations from a re-analysis of the deposited data

Results flagged for a closer look

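Among the 191 named genes, 17 had a line difference that changed after H2O2 by edgeR's test of that change at an adjusted p under 0.01, where 5.32% of all genes tested did. Values are the log2 difference of HaCaT over TIGK after H2O2 minus that before. It went up for the position gene HOXA9 (1.239), the hair keratin KRT81 (2.052), the cyclin CCND2 (0.5767), the mitochondrial MT-ATP6 (0.6661) and MT-CO1 (0.8752), HOXC13 (0.5778), SNAI1 (2.85) and LEF1 (2.927). For SNAI1 and LEF1 this made the excess in TIGK smaller, from -4.48 to -1.57 and from -5.46 to -2.47. It went down for the serpins SERPINB2 (-0.712) and SERPINB5 (-0.5622), the transcription factors SOX9 (-1.486) and TP63 (-0.4386), the kinase inhibitor CDKN1A (-0.5501) and the desmosomal DSG3 (-0.6239), DSP (-0.527) and PKP1 (-0.5441). MYC did not pass the limit at baseline (0.02) and was higher in TIGK after H2O2, a change of -0.9653. Mitochondrial genes took 3.30% to 3.51% of the counts of HaCaT and 1.39% to 1.5% of those of TIGK after H2O2, and the part of this in the changes was not tested.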

How the results depend on the processing

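No called gene that is named changed its direction under any alternative. With a test of more than 2-fold in place of a limit on the estimate, 1093 genes were higher in HaCaT and 1965 in TIGK, against 1909 and 2681. The count of genes on in a single line depended on its limits: with up to 10 counts allowed in the silent line it was 86 in HaCaT and 356 in TIGK, with 0 allowed 15 and 118, with 20 counts enough in the expressing line 79 and 331, with 200 required 12 and 75, and with the H2O2 libraries included 22 and 150. Leaving out each library in turn gave 4289 to 4817 genes higher in HaCaT, 4832 to 5387 in TIGK, 1743 to 1895 and 2558 to 2636 at least 2-fold, and 36 to 46 and 207 to 243 on in a single line. Same-numbered libraries of the lines correlated by -0.00372 to 0.0169 in their deviations. With 3 libraries per line, this cannot decide whether the replicate numbers pair the libraries. A replicate block gave 4749 genes higher in HaCaT and 5238 in TIGK, 1821 and 2600 at least 2-fold. Scaling by library totals alone moved the median of all genes from -0.018 to -0.075 and the share of calls that were higher in HaCaT from 47.6% to 43.5%, while fitting all 12 libraries together moved them to 0.016 and 50.06%, with 5008 genes higher in HaCaT and 4996 in TIGK. Of 2667 alternative values of the 191 named genes, 2642 kept their side of the limit, among them 14 values of 5 genes without a call (PMEL, ZNF165, MYC, TFAP2A and GSTP1) that changed sign, 18 values in 5 genes (VWF, PCDHB12, KRT17, S100A11 and CAV1) lost their call and 7 gained one. List medians near 0 changed sign as well: epithelial factors (0.01) reached -0.05 and detoxification enzymes (0.01) -0.05 with library totals alone. Without a filter the cancer-testis median was 0.95 in place of -2.74, and that of markers of other cell types -0.82 in place of 0.12. How far depth and how far the spread between libraries limits each gene was not tested.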
